A study of Mus musculus with 78 samples.

Results

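A total of 1642 autosomal CpG positions carried over 100 reads, both strands together, in the methylation table of E6.5 mouse epiblast lacking Tet1 and Tet2. They were chosen by that read depth alone and made up 0.00806% of the 20364700 autosomal positions of the table, which holds 21342492 positions with the sex chromosomes. Spacing bore out the working description of these CpGs as satellite-like repeats for a part of them only. A regular repeat spacing was measured around 560 of the 1642. Of these, 501 lie in the chromosome 9 cluster from which the spacing was read. Another 25 lie in a CpG-dense cluster on chromosome 17, where such a match carries little information. A level under 20% was found in 663, of which 24 were among the 560, all in the chromosome 17 cluster. A CpG without a match can still lie in a repeat. In the chromosome 9 cluster 248 of 749 had no match, of which 40 were under 20%. The 1642 are therefore called deep CpGs here.

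The series followed DNA methylation, expression and chromosome folding in mouse embryos from before to after implantation. The table used here merges 3 libraries of STEM-seq, a bisulfite sequencing method for small numbers of cells, and the libraries cannot be separated in it. The donors were Tet1/2 double knockout embryos at E6.5, with the strain label C57BL/6N x DBA. Per the labels' protocols, parents carried the Tet1tm1.1Jae allele with 1 intact copy of Tet1 and the Tet2tm1.1Iaai allele on both chromosomes. The epiblast was taken from the embryonic region and the extraembryonic region served for genotyping. Both parents thus lacked Tet2, and no wild-type or single-mutant methylation table was analysed here, so nothing below is an effect of the knockout. The number of embryos per library is not given in the sources used here, and a methylation table has no markers that check the tissue.

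In bisulfite sequencing an unmethylated cytosine is read as thymine, and methylated and hydroxymethylated cytosines are both read as cytosine. The level of a CpG is the methylated share of its reads. Tet1 and Tet2 are enzymes that oxidise methylated cytosine. Much of the mouse genome is repeated, with tandem satellite DNA beside the centromeres as the best known case, and a reference assembly holds only a small sample of such copies. Where many genomic copies share 1 reference position, its level is an average over copies.

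On mm9, 22153 RefSeq promoters were placed at 1 site by the exact spacing of their CpGs, a count not limited by chromosome. Outside chromosomes 18, X and Y, only 1 of them contained deep CpGs. Promoters whose spacing matched several sites, as repeated sequence can, were left out. The count therefore does not show how often promoters hold deep CpGs. The sequence of this 1 promoter shows how sharply the depth can stop. Gm13822 is a long noncoding RNA gene whose promoter window was placed by 5 CpGs at chr5:115372221-115372520 on the minus strand. The sequence is RefSeq's, from GRCm38.p6, written 5′ to 3′ from 250 bases before to 50 after the start of the gene, and its other bases were not compared with mm9. Capitals mark the 2 deep CpGs.
Gm13822 promoter: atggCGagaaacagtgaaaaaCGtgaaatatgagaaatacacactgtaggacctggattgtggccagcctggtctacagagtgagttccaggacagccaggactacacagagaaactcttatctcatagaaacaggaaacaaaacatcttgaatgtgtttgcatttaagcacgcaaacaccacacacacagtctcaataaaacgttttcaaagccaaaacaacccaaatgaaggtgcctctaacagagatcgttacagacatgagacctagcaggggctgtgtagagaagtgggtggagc
Both deep CpGs lie at the 5′ end of the window, at bases 5 and 22. The CpG at base 5, chr5:115372515, had 130 reads and a level of 46.9%. At base 22, chr5:115372498 had 322 reads and a level of 59.9%, with 9.32% of its reads on the Crick strand. The other 3 CpGs of the window, at bases 172, 203 and 251, had 4, 4 and 3 reads. The depth therefore fell from 322 reads to 4 between neighbouring CpGs. The deep pair opened a cluster of 5 deep CpGs at chr5:115372498-115372572 with a level of 56.9% and 7.32% of reads on Crick.

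Deep CpGs took up 2360937 reads, 4.96% of all autosomal reads. Their median depth was 435 reads and the highest 15709, beside a mean of 2.34 reads over all autosomal CpGs. These values follow from the selection and are a description. The 83 CpGs just inside the threshold, at most 5 reads above it, had a pooled level of 28.6%, and 57 of them were under 20%. The 81 just outside it, with 96 to 100 reads, had a pooled level of 28.9%, and 58 were under 20%. The threshold thus cut through a continuous set of CpGs.

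The depth of the deepest CpGs was a lower bound. No deep CpG had more than 7959 reads on Crick or 7956 on Watson. Between 7500 and that maximum lay 41 Crick and 38 Watson values, while 0 Crick and 6 Watson values lay between 7000 and 7500. The 57 CpGs that had at least 1 strand in that top range came from 7 runs on 5 chromosomes, and 22 had both strands in it. The 5 deepest all lay in 1 cluster on chromosome 2, at chr2:98506748 (15709 reads), chr2:98507306 (15661 reads), chr2:98507248 (15657 reads), chr2:98507364 (15632 reads) and chr2:98507055 (15621 reads). Their levels ran from 81.3% at the first to 86.1% at the third. What set the common maximum is not given in the sources used here, and pooled levels and strand shares weight these CpGs by their truncated depth.

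Most deep CpGs had a level under 20% or of 50% or more, with few between these bounds. Of the 1642, 663 had a level under 20%, 55 lay from 20% to under 50%, 391 from 50% to under 80% and 533 at 80% or above. The share under 20% was 40.4%, against a background of 38.3% over all autosomal CpGs with at least 20 reads, of which the deep CpGs are a part. Among the 3819 other CpGs with 20 to 100 reads it was 37.4%, and among CpGs with 10 to 19 reads 3.04%. The share of low CpGs therefore did not set deep CpGs apart from CpGs with 20 to 100 reads. Both classes stood apart from the CpGs with 10 to 19 reads, which are deeper than most autosomal CpGs. Over all covered autosomal CpGs the share under 20% was 12.04%. It was 20.8% at 1 read, 10.5% at 2 to 4 reads and 3.78% at 5 to 9 reads. These shares were also below those of both classes, but so few reads allow only a few levels.

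**Figure D1:**
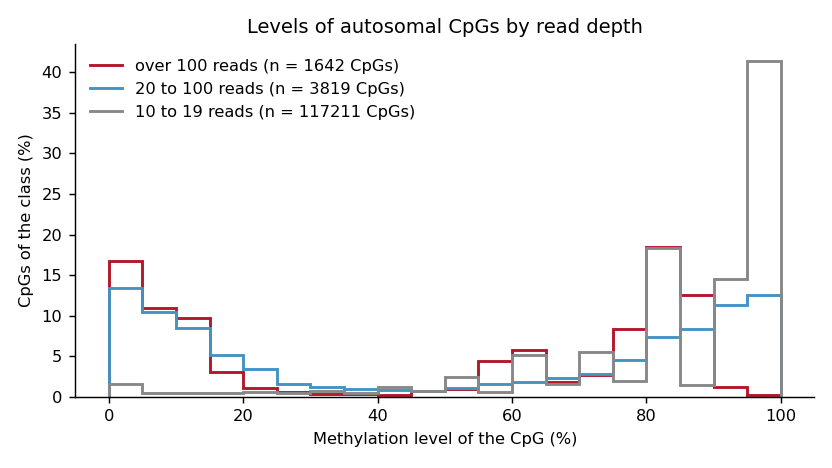
Distribution of the methylation level of single autosomal CpGs (x axis, %) as the share of CpGs in each bin of 5 points (y axis, %), for deep CpGs, CpGs with 20 to 100 reads and CpGs with 10 to 19 reads. The deep CpGs form a low group, a high group at 75% to 90% and a smaller rise at 55% to 65%, and jagged steps in the class of 10 to 19 reads come from the few fractions that so few reads allow.

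The pooled level of the deep CpGs was 71.5% (95% Wilson interval 71.4% to 71.5%), against 81.2% (81.2% to 81.2%) over all autosomal CpGs. These intervals cover counting error only, and reads without molecular identifiers are not independent molecules. The mean of the single CpG levels was 47.6% and their median 60.7%. The pooled value lay above both because high CpGs held most of the reads. In CpGs with up to 200 reads the pooled level was 26.1%, in those with over 200 and up to 500 reads 52.0%, and in those with over 500 and up to 1000 reads 52.5%. It was 70.4% in the 407 CpGs with over 1000 and up to 5000 reads and 79.8% in the 109 above 5000. The low CpGs were thus concentrated at the shallow end of the deep CpGs.

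**Figure D2:**
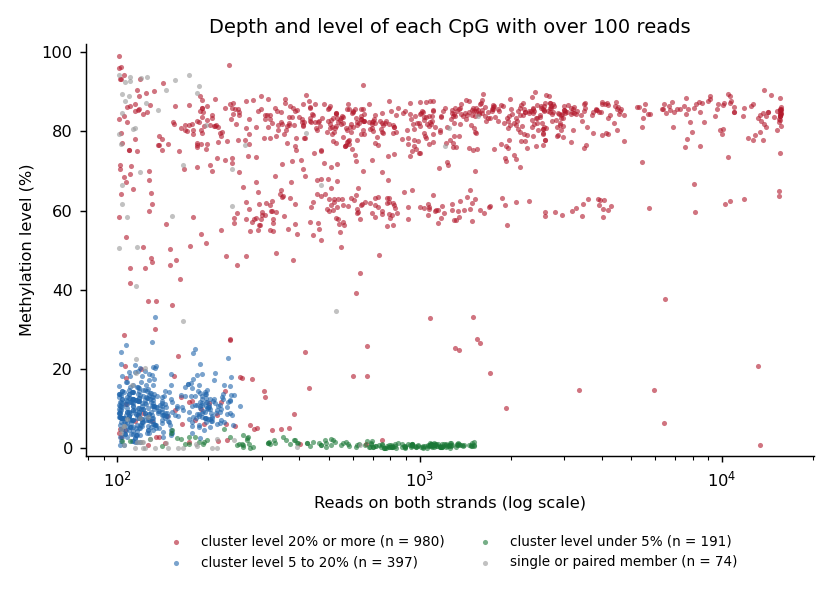
Reads on both strands (x axis, log scale) and methylation level (y axis, %) of each deep CpG, coloured by the pooled level of the cluster it belongs to. CpGs of clusters under 5% form a flat line up to 1514 reads, those of clusters of 5% to 20% reach 255 reads at most, and those of clusters at 20% or more form a band near 80% to 90%, a thinner band near 60% and scattered low points.

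Deep CpGs were clustered on a few chromosomes. Chromosome 9 held 776 (47.3%), chromosome 17 held 296 (18.03%) and chromosome 2 held 107 (6.52%), together 71.8%. In reads the order was different, with 52.8% on chromosome 9, 32.0% on chromosome 2 and 1.83% on chromosome 17. The 3 chromosomes also differed in level, at 78.8% for chromosome 9, 74.9% for chromosome 2 and 10.0% for chromosome 17. Chromosome 1 came next, with 78 deep CpGs and a level of 1.00%. Chromosomes 14 and 19 had 3 deep CpGs each, the fewest.

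Linking deep CpGs at most 1 kb apart gave 44 clusters of at least 3, which held 1568 CpGs (95.5%). Another 22 lay in runs of 2 and 52 stood alone. The pooled levels of the clusters left gaps between 3.13% and 8.09% and between 18.96% and 48.9%. The clusters are described in the 3 groups these gaps make, a division chosen after the levels were seen.

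The highest group had 24 clusters with 980 deep CpGs and 90.4% of all deep reads. Its pooled level was 78.3%, with clusters from 48.9% to 82.9%. The median depth of its CpGs was 786 reads. The median level of its clusters was 71.2%, and that of the other CpGs from 1 to 5 kb beyond each cluster was 82.9%. The cluster was below its flanks in 19 of 24, although the flanks of single clusters rest on 12 to 6139 reads. At chr11:3000511-3004737, for example, the level was 54.0% beside 88.3% in the flanks.

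The largest cluster of all was an array at chr9:3000031-3038374, where 749 of 777 CpGs were deep. It held 1127017 deep reads at a level of 78.5% (78.4% to 78.6%), and 30.1% of them were on Crick. Over 19 consecutive windows of 2 kb the level ran from 72.2% to 81.7% and the Crick share from 18.8% to 46.5%. Crick was thus the minor strand in every window, while the level moved little along the array. The nearest placed promoter was that of Gm31138, 161 kb beyond its end. In GRCm38.p6 gene order, the genes before it are Mir101c, a miRNA gene, the pseudogenes Gm32390 and Gm7344, and the noncoding 4930433N12Rik.

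Next in the highest group came 2 neighbouring clusters on chromosome 2. At chr2:98502421-98505349, 37 of 46 CpGs were deep, with 307795 reads, a level of 72.4% and 48.6% of reads on Crick. Its 9 other CpGs had a mean of 1.89 reads, beside a median of 9103 reads for the deep ones. At chr2:98506419-98507482 all 30 CpGs were deep, with 417385 reads, a level of 82.1% and 48.8% on Crick. Most CpGs of the second cluster were near the common maximum on both strands, so its strand balance cannot be read from these counts.

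Of the other named clusters with a high level, chr9:35112827-35113167 had the highest level of all clusters of at least 5 deep CpGs, 82.9% over 10 CpGs and 113605 reads, with 65.4% on Crick. It lies between the placed promoters of Fam118b, 37.2 kb away, and Pus3, which encodes a pseudouridine synthase, 253 kb away. At chr11:3093630-3095235, 14 of 24 CpGs were deep with only 1590 reads in all and a level of 81.3%. It ends 6.87 kb before the promoter of Eif4enif1, which encodes a transporter of the translation factor eIF4E. The cluster at chr11:3000511-3004737 had 29 deep CpGs of 86, a level of 54.0% and 12.9% of reads on Crick. Genes beside a region are named only through promoters placed by CpG spacing, a choice made after the regions were known, because no mm9 annotation was used.

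The middle group, from 8.09% to 18.96%, had 9 clusters with 397 deep CpGs and a pooled level of 10.5%. Its CpGs were the shallowest, with a median of 126 reads and a maximum of 255. They were the most crowded, with a median of 19 other CpGs within 100 bp, against 4 in the highest group and 3 in the lowest. Over all autosomal CpGs that median is 2. Beyond these clusters the level was 86.2%, so the low level ended with the cluster.

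Most of the middle group was the cluster at chr17:39979946-39985643, with 292 deep CpGs of 581 and 10.2 CpGs per 100 bp. It held 42691 deep reads at a level of 10.1% (9.80% to 10.4%), and 37.8% of them were on Crick. The 289 CpGs in its span that did not reach the threshold had a level of 9.67%, so depth did not separate different levels there. In the 11 windows of 500 bp that lay wholly in the span the level ran from 6.56% to 13.6%. The window across its end was at 6.30%, while the flanks were at 87.6%. No placed promoter was near: the closest were those of H2-M3 and Crisp2, with 88 RefSeq genes between them in GRCm38.p6. One of the 88 is Rn18s-rs5, named after 18S ribosomal RNA, but where it lies relative to the cluster was not tested.

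Other clusters of the middle group were short CpG-dense patches. At chr16:57391594-57391764, 25 of 26 CpGs were deep at a level of 8.32% (7.37% to 9.39%), between 2 placed promoters of Filip1l, whose product interacts with filamin A. At chr3:5860340-5860682, 23 of 25 were deep at 11.2% (10.1% to 12.4%). The flanks of the first were at 89.5%. Both levels lay within the range of 6.56% to 13.6% seen over the whole 500 bp windows of the chromosome 17 cluster. The intervals cover counting error only, and a difference from that cluster was not tested. The median depths of the 2 patches, 113 and 117 reads, are bounded below by the threshold.

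The lowest group had 11 clusters with 191 deep CpGs and a pooled level of 0.864%. Its clusters ranged from 0.590% to 3.13%, and its CpGs had a median of 830 reads. Beyond them the level was 77.4%. The group held 153736 reads, against 56247 in the middle group. How fully unmethylated cytosines were converted was not measured here, so differences among levels this low were not interpreted.

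At chr1:24618391-24622994 all 75 CpGs were deep, with 84338 reads, a level of 0.883% (0.822% to 0.949%) and 65.5% of reads on Crick. Single CpGs ran from 0.0796% to 2.13%, and the flanks were at 84.4%. The cluster lies 23.9 kb from the promoter of Col19a1, a collagen gene, and 62.1 kb from that of Lmbrd1, a lysosomal cobalamin transporter. In GRCm38.p6 these enclose 4 genes, of which 3 are pseudogenes.

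Similar levels recurred at other low clusters. At chr2:22443925-22445698 all 34 CpGs were deep at 0.590% (0.509% to 0.684%), the lowest of the clusters with at least 5 deep CpGs, with flanks at 47.3%. It lies 31.9 kb from the promoter of Gad2, a glutamate decarboxylase. At chr4:79648393-79650844, 30 of 39 CpGs were deep at 1.12%, and the 9 others had a level of 7.58%. The clusters at chr12:98299663-98299974, with 13 deep CpGs, and chr10:95540168-95540486, with 6, were at 0.637% and 0.671%. The latter lies between Eea1, an endosome gene, and 4930459C07Rik. In all 5 named clusters of the lowest group the level was far below that of the flanks. Flank levels ran from 47.3% at chr2:22443925-22445698 to 84.4% at chr1:24618391-24622994.

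**Figure D3:**
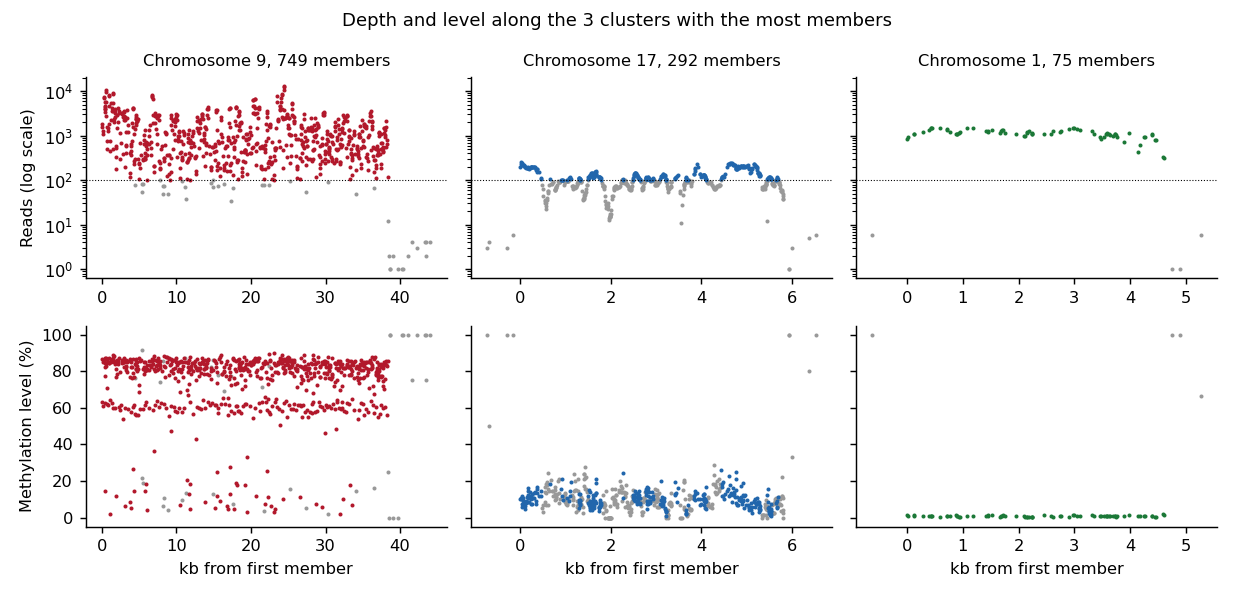
Reads per CpG (top, log scale) and methylation level (bottom, %) along the 3 clusters with the most deep CpGs, against distance from the first deep CpG in kb. Coloured points are deep CpGs, grey points are other covered CpGs and the dotted line marks 100 reads. The chromosome 9 array shows a band at 80% to 90%, a separate band near 60% and scattered low points, while chromosome 17 stays near 10% and chromosome 1 near 0.

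Regular spacing of deep CpGs was seen mainly in the chromosome 9 array. Among pairs of deep CpGs in a cluster, from 20 to 1000 bp apart, the commonest distance was 234 bp, with 335 pairs, of which 303 lay in the chromosome 9 array. In that array, distances of 468, 702 and 936 bp, the next multiples, occurred in 198, 151 and 110 pairs, against a median of 7 pairs per distance. Units of 234 bp are known from the major satellite of mouse pericentromeric DNA. No sequence of these regions was used, so the match is one of spacing. Without the chromosome 9 array, the commonest distance was 58 bp with 51 pairs, 25 of them in the CpG-dense chromosome 17 cluster, and 234 bp had 32.

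Within a period the array showed 6 recurring CpG places, separated by 12, 28, 18, 42 and 16 bp, with 118 bp to the next unit. The first 3 gaps sum to 58 bp, as do the fourth and the fifth. A CpG was matched to a place when at least 5 of the 12 expected positions around it held a CpG, with 1 best place. The unit was read off the array itself, so its fit there is no test. By this measure 560 deep CpGs (34.1%) matched, against a background of 0.242% of all autosomal CpGs. Of the 560, 501 lie in the array, so this contrast is a description and no test. In the other clusters of 20% or more, 34 of 231 deep CpGs (14.7%) matched. The background was not matched for CpG density.

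In the array 501 of 749 deep CpGs matched, all in 1 orientation. The pattern also appeared elsewhere. At chr2:98506419-98507482, 19 of 30 matched, 18 of them in the opposite orientation, and at chr9:35112827-35113167 9 of 10 matched, all opposite. At chr2:98502421-98505349, 6 of 37 matched. The chromosome 17 cluster had 25 matches of 292 in mixed orientation, 14 and 11, and with so many CpGs per base a match there carries little information. Without them 535 deep CpGs (32.6%) matched, and 0 of these had a level under 20%.

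The level differed by place in the unit. In the chromosome 9 array the median level was 84.2% at the first place (106 CpGs), 83.1% at the second (64), 77.9% at the third (83), 82.3% at the fourth (62) and 84.7% at the sixth (72). At the fifth place it was 60.2% over 114 CpGs, with quartiles of 58.3% and 61.9% and a range of 50.7% to 69.8%. With at least 5 positions needed for a match, every one of these 114 lay between 50% and 70%, as did only 14 of the matched CpGs of the other places. The fifth place thus made up most of the band near 60%, which held 159 of the array's deep CpGs. It was lower on both strands, with a median of 61.5% on Crick and 59.3% on Watson. With 4 positions needed in place of 5, a looser rule chosen after seeing the data, 144 CpGs matched this place and ranged from 19.1% to 86.8%, with a median again of 60.2% and quartiles of 58.0% and 62.2%. The levels were not used to define the unit.

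The same place was low in other clusters. In clusters of 20% or more outside the array, 7 deep CpGs matched the fifth place, with a median of 65.04%, while the other places had medians from 84.1% to 86.6%. On chromosome 2 they were chr2:98502421 at 61.6%, chr2:98502655 at 66.7%, chr2:98506779 at 74.4%, chr2:98507013 at 65.04% and chr2:98507264 at 63.6%. On chromosome 9 chr9:35113019 was at 62.9%. The exception was chr2:98506927 at 84.7%, the one CpG of its cluster that matched in the orientation opposite to its neighbours. These clusters may share sequence and reads with the array, so they are not independent copies.

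**Figure D4:**
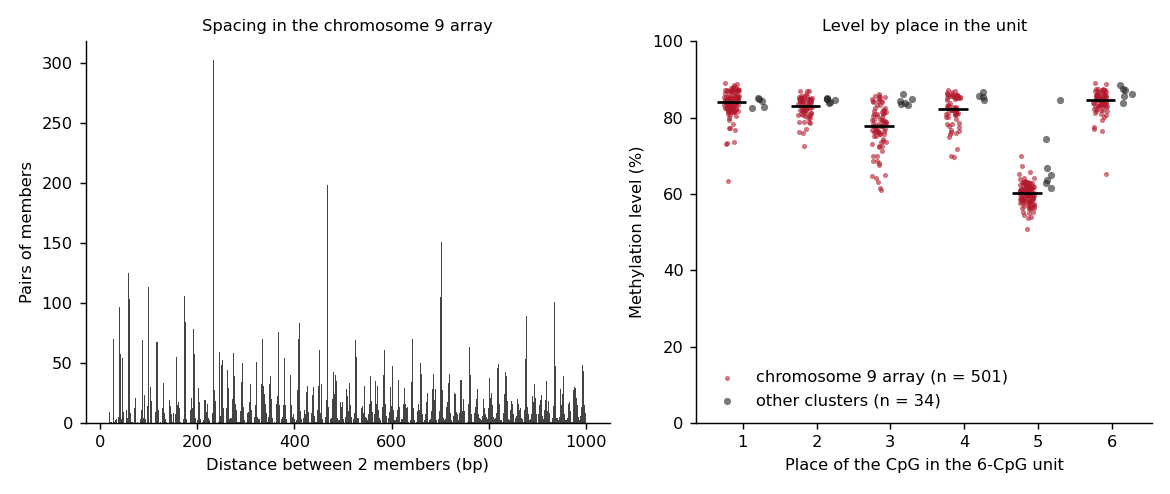
Left, number of pairs of deep CpGs at each distance in the chromosome 9 array (x axis, bp), with peaks at 234 bp and its multiples. Right, level of each matched deep CpG (y axis, %) by its place in the 6-CpG unit, in the array (red, n = 501, bars are medians) and in other clusters of 20% or more (black, n = 34), where the fifth place is low in both except for 1 black point at 84.7%.

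Some CpGs in clusters of the highest group had a low level, mostly beside methylated neighbours. In the clusters of 20% or more, 58 deep CpGs had a level under 20%, 40 of them in the chromosome 9 array. None of the 40 matched a place of the unit with 5 positions needed, and 2 did with 4. The nearest deep CpG lay a median of 15 bp away and had a median level of 81.9%. It was at 50% or more for 54 of the 58. The deepest, chr2:98502984, had 13331 reads at a level of 0.878%, with 0.994% on Crick and 0.706% on Watson, and its nearest deep neighbour 23 bp away was at 79.2%. Of the 50 such CpGs with at least 10 reads on each strand, 31 were under 20% on both strands. Whether the genomic copies carry a CpG at these places was not tested.

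The strands were covered unevenly. Over all deep CpGs 42.1% of reads were on Crick (95% Wilson interval 42.1% to 42.2%), against 49.6% over all autosomal CpGs. The chromosome 9 array carried this difference, since without it the share was 53.2%. Within the array the Crick share ran from 24.8% at the second to 45.5% at the sixth place of the unit. Among the 44 clusters it ran from 6.91% to 97.3%. The lowest group had a pooled Crick share of 61.3%, the middle group 41.0% and the highest 40.6%, and clusters in each group lay on both sides of 50%.

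Extreme imbalance was less common than in the classes of 20 to 100 and of 10 to 19 reads. Over 90% of reads lay on 1 strand for 125 deep CpGs (7.61%), 80 with under 10% on Crick and 45 with over 90%. The background over autosomal CpGs with at least 20 reads, of which the deep CpGs are a part, was 21%. Among the 3819 CpGs with 20 to 100 reads the share was 26.7%, and among those with 10 to 19 reads 13.6%. The share thus did not change in 1 direction with depth, and the cause was not tested. Of the 125, 26 were among the 52 deep CpGs that stood alone.

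Despite the uneven coverage the strands mostly gave like levels. In 1584 deep CpGs with at least 10 reads on each strand the median absolute difference was 4.02 points, against 7.37 points in the 1673 such CpGs of the class with 20 to 100 reads. A difference over 20 points was found in 89 (5.62%), against a background of 9.95% over all autosomal CpGs with that coverage. Fewer reads widen such differences by counting alone.

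A difference over 50 points was found in 12 deep CpGs, and the examples given were chosen after their values were seen. At chr2:98502786 the level was 24.7% over 5096 Crick reads and 85.7% over 1365 Watson reads. At chr2:98505156 it was 90.6% over 351 Crick and 15.4% over 1146 Watson reads. At chr10:7231579 it was 11.6% over 43 Crick and 96.7% over 61 Watson reads. The difference thus occurred in both directions and at depths that leave little counting error.

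**Figure D5:**
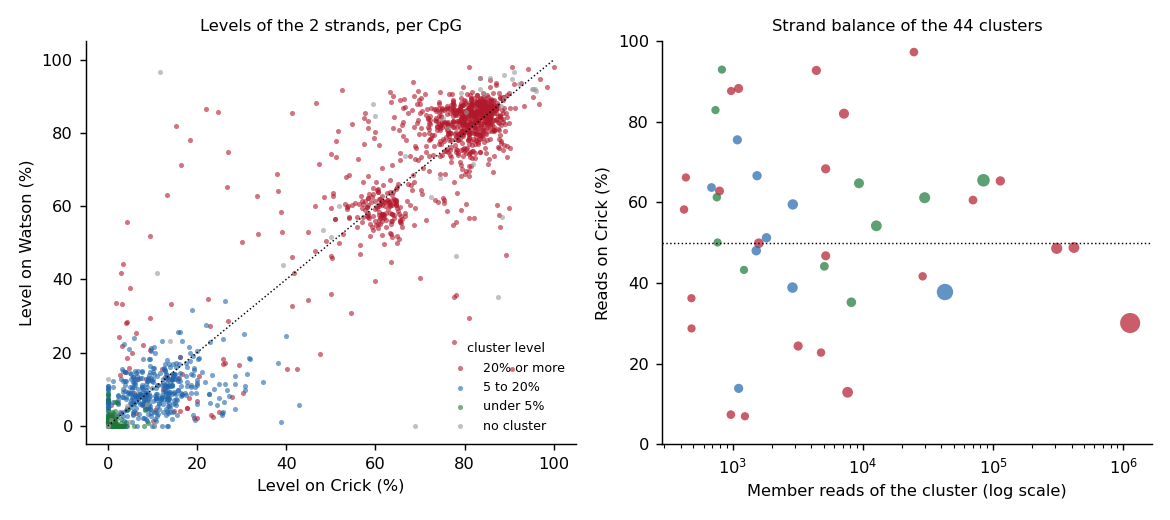
Left, level on Crick (x axis, %) and on Watson (y axis, %) for each deep CpG with at least 10 reads on each strand, coloured by the level of its cluster, with the line of equal levels dotted. Right, deep reads of each of the 44 clusters (x axis, log scale) and their share on Crick (y axis, %), point size growing with the number of deep CpGs, where the chromosome 9 array is the rightmost point at 30.1%.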

How the data were processed

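CpG methylation was read from 1 deposited table in which the authors merged 3 libraries, per the labels. For every CpG it gives raw counts of methylated and of unmethylated reads, separately for Crick and Watson. Bases were called with CASAVA 1.8 and reads mapped to mm9 with BS-Seeker2, whose version was not given, per the submitters' processing notes. The handling of reads with several genomic matches, of duplicates and of depth limits is not given in the sources used here. All of these bear directly on deep positions. Chromosomes X and Y were kept apart and the other samples of the series were not analysed here.

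Counts of both strands were summed per position. A level is methylated over all reads, with a 95% Wilson interval where printed. With 1 merged table there are no replicates, so no test was made. The mean depth was 2.34 reads per autosomal position, and 23.8% of positions had 0 reads. Clusters were deep CpGs linked at 1 kb or less, at least 3. Named were the 10 clusters with most deep CpGs, the 3 lowest and 3 highest in level among those with at least 5, the 5 deepest CpGs and those within 5 reads of the threshold. Regions of chromosome 18 were counted in totals and not named. RefSeq promoter sequences (GRCm38.p6, 32851) were placed on mm9 by the exact distances between their CpGs, and 22153 of the 25195 with at least 3 CpGs matched 1 site. Distances to genes used the 15821 with at least 8. Members, groups and the repeat unit were chosen with earlier results of these data known. Alternatives were other depth thresholds, linking distances, weights, strands and places needed, and single clusters left out. The functions were tested on simulated data. Tools were pandas 2.3.3, numpy 2.4.6, scipy 1.17.1 and matplotlib 3.10.9 under Python 3.11.15.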

Additional observations from a re-analysis of the deposited data

Results flagged for a closer look

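The sex chromosomes are outside the measurement described above and also held positions of over 100 reads. There were 24 on chromosome X, of 960089 positions, with a pooled level of 48.2% and 29.5% of reads on Crick, and 13 of the 24 had over 90% of reads on 1 strand. There were 64 on chromosome Y, of 17703 positions, with a pooled level of 57.9% and 47.5% of reads on Crick. The median depth was 124 reads on X and 136 on Y, and the deepest position had 5507 reads on X and 659 on Y.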

How the results depend on the processing

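No paired analysis was possible because the 3 libraries were merged into 1 table, and for the same reason no replicate could be left out. The threshold set the size of the set: 2723 CpGs had over 50 reads, 1079 over 200 and 778 over 500. Over 50, over 200 and over 500 reads gave pooled levels of 70.5%, 73.0% and 73.9%. The pooled level was 47.6% as a mean over CpGs, 68.5% on Crick, 73.6% on Watson, 65.03% without the chromosome 9 array and 63.3% without chromosome 9. The Crick share was 42.3% over 50 reads, 41.8% as a mean over CpGs, 40.4% of methylated and 46.6% of unmethylated reads, and 53.2% without the array, which turned it to above 50%. Clusters numbered 81 over 50 reads and 25 over 200. The share on chromosomes 9, 17 and 2 was 71.8%, and the share on the 3 chromosomes with most deep CpGs was 66.7% over 50 reads and 81.3% over 200. By reads, chromosomes 9, 17 and 2 held 86.6%. CpGs under 20% numbered 1227 over 50 reads, 256 over 200 and 379 without the chromosome 17 cluster. The commonest spacing was 58 bp without the array. These 25 of 39 alternatives moved a share beyond its counting interval, a count by over 1.5 times or the spacing, and the cause was not tested where the alternative does not itself change the CpGs counted. The other 14 stayed within those bounds or, for the fifth place of the unit, within a looser one. The bounds are wide for counts: 1167 CpGs had over 50 reads on each strand, clusters numbered 58 at a linking distance of 200 bp, 44 at 5 kb and 31 with at least 5 deep CpGs, and 453 CpGs were under 10% and 691 under 30%. The Crick share over 200 reads was 42.1%, and the spacing was 234 bp over 50 reads, over 200 and among all covered CpGs. The median at the fifth place was 60.2% in the array with 4 places needed and 60.0% with 7, and 64.3% and 64.0% in other clusters, but with 4 its range widened. The bound for these medians was the standard deviation of the CpG levels, 2.84 points in the array and 8.32 in other clusters. Leaving out the chromosome 17 cluster and changing the places needed were chosen after seeing the data.

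Levels rest on reads whose genomic copy is unknown, depths near the common maximum are lower bounds, and ordinary CpGs have too few reads for a comparison of single positions.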
